A study of Rattus norvegicus with 6 samples.

Results

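The CYP3A and CYP2D cytochrome P450 genes, together with Nr1i2, which encodes the pregnane X receptor (PXR), were followed in the livers of rats given carbon tetrachloride (CCl4) or corn oil. The members were 4 CYP3A genes (Cyp3a2, Cyp3a9, Cyp3a18 and Cyp3a62), 5 CYP2D genes (Cyp2d1, Cyp2d2, Cyp2d3, Cyp2d4 and Cyp2d5) and Nr1i2. They were found by symbol, through the RefSeq accession that the array gives for each probe, and all 10 were present, on 12 of the 61537 probes other than controls. Cyp2d5 and Nr1i2 had 2 probes each and the other members 1 each. All 12 probes were well above background on all 6 arrays and none was saturated, so all 10 members were tested among 11939 genes.

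Liver RNA came from 6 male Sprague-Dawley rats, an outbred stock, bought at 5 weeks of age, with 1 array per rat. Of these, 3 received CCl4 at 100 mg/kg/day, and 3 received corn oil, the vehicle, with no further treatment or genetic change given in the labels. CCl4 is a solvent that the P450 enzyme CYP2E1 turns into reactive products, and it is given to rodents as a model of toxic liver injury. The labels place the measurement at 28 days in one field and describe 9 weeks of dosing in another, and the files do not settle which holds. The CCl4 rats of the second slide (replicates 2 and 3) were scanned on another day from CCl4 replicate 1 and the 3 corn oil rats, which shared the first slide. Levels below are log2 signals relative to the array's own 75th percentile, so 0 is the 75th percentile, and a level of one probe cannot be ranked against that of another. All 8 hepatocyte markers checked, albumin among them, were well above background, and their summed level was 4883 to 5489 times the 75th percentile in CCl4 livers, against 5939 to 6217 in corn oil livers.

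Cytochrome P450 enzymes of the endoplasmic reticulum oxidise drugs, steroids and foreign chemicals with electrons passed on by P450 reductase. CYP3A enzymes take a very wide range of drugs and hydroxylate testosterone, and CYP2D enzymes prefer basic amines, including debrisoquine and many drugs of the nervous system. PXR is a nuclear receptor that binds foreign chemicals and bile acids, pairs with the retinoid X receptor and turns on CYP3A genes, whereas CYP2D genes are known as poorly inducible. In rats several of these genes also follow sex, with Cyp2c11, Cyp3a2 and Cyp3a18 typical of adult males and Cyp2c12 and Cyp3a9 of females.

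Setting CCl4 against corn oil livers addresses how repeated dosing with the solvent relates to liver gene expression. In these families Cyp3a2 had the largest difference, at 3.13-fold lower in CCl4 livers, followed by Cyp2d4 and Cyp2d3 at 1.68-fold and 1.61-fold lower. Cyp2d1, Cyp2d2, Cyp2d5, Cyp3a9, Cyp3a18 and Cyp3a62, by contrast, had intervals of the difference that include 0 and overlapping groups. None of the 10 members passed an adjusted p of 0.05 in limma's moderated test over all genes, where 0.637% of genes did and 0.0754% did with a lower level in CCl4, and their adjusted p-values were 0.0756 to 0.924. At an unadjusted p below 0.05, 3 members were lower (Cyp3a2, Cyp2d3 and Cyp2d4), against 9.77% of all genes, and 4 had CCl4 livers that all lay below the corn oil livers, against 15.9% of all genes. All 10 changes were negative, as were 57.2% over all genes, though Cyp2d5 was positive under quantile normalization (0.051) and Cyp3a9 with any of 3 rats left out (0.07 to 0.43). The median change of the members was -0.27, beside -0.05 over all genes tested. The 8 hepatocyte markers came near the members, with 8 negative changes and a median of -0.21. For 4 of these 8 markers all CCl4 livers lay below the corn oil livers. With bulk liver RNA, fewer hepatocytes and less of a transcript per hepatocyte cannot be told apart, and the part of the lower hepatocyte marker level in these values was not tested.

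**Figure D1:**
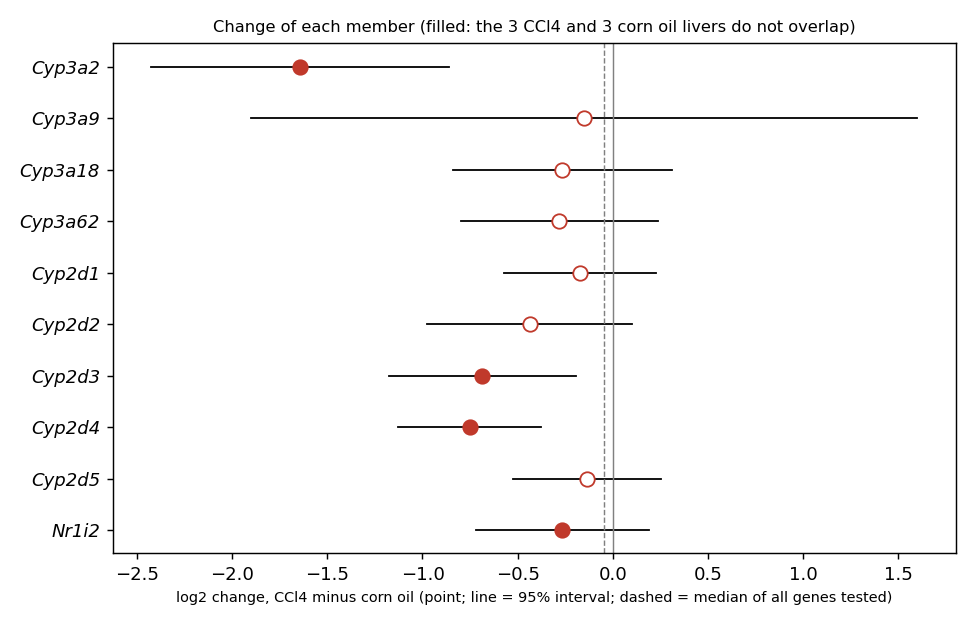
Log2 change of each member, CCl4 minus corn oil, with its 95% interval from limma (3 rats per group); the dashed line is the median change of all genes tested, -0.05. The interval lies below 0 for Cyp3a2, Cyp2d3 and Cyp2d4, and filled points mark members whose groups do not overlap, which also include Nr1i2.

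Cyp3a2 encodes the main CYP3A enzyme of the adult male rat liver. Its level was 6.85, 7.05 and 7.94 in the 3 CCl4 livers, against 9.07, 8.52 and 9.18 in the 3 corn oil livers. The groups were separated by 0.58 on the log2 scale, between CCl4 replicate 3, the highest of its group, and corn oil replicate 2, the lowest of its own. The log2 change was -1.64 ± 0.32 (SE, n = 3 per group; 95% interval -2.43 to -0.86; limma adjusted p = 0.0756), and 0.159% of the genes tested had a more negative change. With normexp background correction the change was -1.67 and passed (limma adjusted p = 0.0490). It also passed when CCl4 replicate 3 was left out, at -1.97 (limma adjusted p = 0.0331). With any other rat left out it did not pass, at -1.85 to -1.43 (limma adjusted p = 0.0876 to 0.242). On the first slide, where CCl4 replicate 1 stands against the 3 corn oil rats, the change was -2.07 (adjusted p = 0.196, and 0.219 with slide as a block).

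The other CYP3A members had smaller estimated differences. Cyp3a18, another male-predominant enzyme, lay at 5.95, 5.61 and 6.31 in CCl4 livers, against 5.97, 6.09 and 6.60 in corn oil livers. These groups overlapped, with a log2 change of -0.27 ± 0.24 (SE; 95% interval -0.84 to 0.31; adjusted p = 0.562). Cyp3a62, a CYP3A enzyme of rat liver and intestine, lay at 1.23, 1.61 and 2.00 in CCl4 livers, against 1.68, 1.98 and 2.01 in corn oil livers. Its CCl4 replicate 3 reached the corn oil levels while replicate 1 lay below all of them, and the change was -0.28 ± 0.21 (95% interval -0.80 to 0.24; adjusted p = 0.496).

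Cyp3a9, a female-predominant enzyme, varied more between rats of one group than between groups. It was at 2.39, 3.66 and 2.83 in CCl4 livers, against 4.27, 1.51 and 3.55 in corn oil livers. Corn oil replicate 2 was the lowest and corn oil replicate 1 the highest of all 6 rats, and 0.846% of the genes tested had a larger corn oil SD. The change was -0.15 ± 0.73 (95% interval -1.90 to 1.60; adjusted p = 0.924), and it became positive when 1 rat was left out, at 0.43 for corn oil replicate 1, 0.07 for corn oil replicate 3 and 0.13 for CCl4 replicate 1. A difference of the size seen for Cyp3a2 lies within this interval.

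The within-array difference between the Cyp3a2 and Cyp3a18 probes can be compared between the groups, but not read as a ratio of the 2 transcripts. Cyp3a2 minus Cyp3a18 was 0.91, 1.44 and 1.63 in CCl4 livers, against 3.10, 2.42 and 2.58 in corn oil livers, and the same difference to Cyp3a62 did not overlap between the groups either. Both gave p = 0.1 in a two-sided exact permutation test, the smallest that 3 rats against 3 can give, and p = 0.175 after adjustment over the 7 differences computed in this way, which were chosen with the levels known. The difference of Cyp3a2 to Cyp3a9 overlapped (exact p = 0.2, adjusted 0.28).

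**Figure D2:**
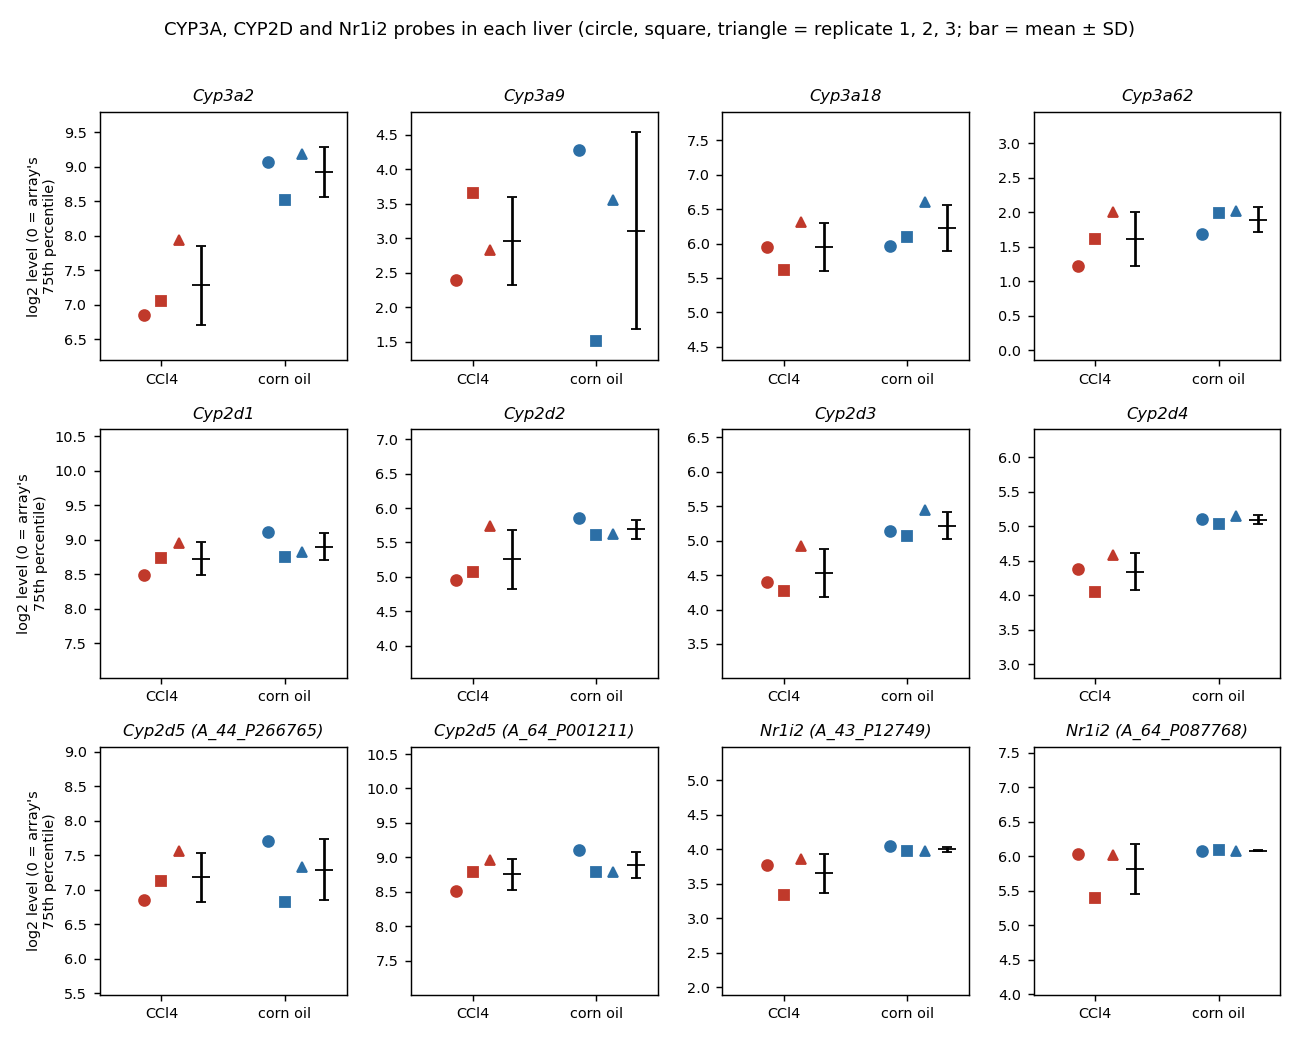
Log2 level of every probe in each rat (0 is the array's 75th percentile), with CCl4 livers in red, corn oil livers in blue and the mean ± SD of 3 rats as a black bar. Each panel spans 3.6 log2 units, so distances compare across panels. Cyp3a2 and Cyp2d4 show the clearest gap between the groups, and Cyp3a9 the widest corn oil spread.

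The promoters of Cyp3a2 and Cyp3a18 are shown because these male-predominant genes had different estimated changes, and because PXR acts on CYP3A promoters. RefSeq places Cyp3a2 at chr12:14321771-14343886 and Cyp3a18 at chr12:13994312-14044185 of the GRCr8 assembly, on the minus and plus strands. The sequences below are the 250 bases before each annotated transcription start, read 5′ to 3′ on the gene's strand, from chr12:14343858-14344107 (minus strand) for Cyp3a2 and chr12:13994062-13994311 (plus strand) for Cyp3a18. Capitals mark letter matches on either strand to the nuclear receptor half-sites AGGTCA and AGTTCA, to the repeat of AGTTCA described after them, to the HNF4 motif CAAAGTCCA and to TATAAA. The starts are those of the transcripts in the RefSeq promoter table, which for Cyp3a2, Cyp2d4 and Cyp2d5 lie inside the outer gene boundary.
Cyp3a2: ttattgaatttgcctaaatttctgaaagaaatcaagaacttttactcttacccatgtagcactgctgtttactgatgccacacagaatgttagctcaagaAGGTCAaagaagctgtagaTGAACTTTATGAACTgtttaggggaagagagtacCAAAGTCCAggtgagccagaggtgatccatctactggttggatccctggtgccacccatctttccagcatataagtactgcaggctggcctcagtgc
Cyp3a18: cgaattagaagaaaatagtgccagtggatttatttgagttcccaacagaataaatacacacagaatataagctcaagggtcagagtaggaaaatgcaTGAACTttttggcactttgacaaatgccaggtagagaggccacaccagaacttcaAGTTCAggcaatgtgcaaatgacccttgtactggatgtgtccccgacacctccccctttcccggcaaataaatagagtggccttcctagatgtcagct
In the window of 250 bases before and 50 bases after the start, Cyp3a2 held the run TGAACTTTATGAACT from -131 to -117 relative to the start, which on the other strand is a direct repeat of AGTTCA with a spacer of 3 bases (DR3). This repeat, whose letters overlap both of its half-site matches and which was searched on both strands like the other motifs, was present in 2 of 33469 RefSeq promoters, those of Cyp3a2 and Cyp3a23-3a1. Cyp3a18 held 2 single AGTTCA matches, Cyp3a9, Cyp3a62 and Nr1i2 held 1 each, and 14.5% of all promoters held at least 1. AGGTCA was present in Cyp3a2 among the 10 members and in 16.2% of all promoters. The HNF4 motif CAAAGTCCA was present in Cyp3a2 alone among the members, and in 0.391% of all promoters. Cyp3a23-3a1, which shares the DR3 letters and is not a member, lay at 5.17, 5.58 and 5.61 in CCl4 livers, against 6.27, 5.23 and 6.08 in corn oil livers. Its groups overlapped, with a log2 change of -0.40 ± 0.29 (SE; adjusted p = 0.469).

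Among the CYP2D genes Cyp2d4 and Cyp2d3 had the largest estimated differences between the groups. Cyp2d4, a CYP2D enzyme known from brain as well as liver, was at 4.39, 4.05 and 4.59 in CCl4 livers, against 5.10, 5.03 and 5.16 in corn oil livers. Every CCl4 liver lay at least 0.44 below every corn oil liver, and the corn oil livers were within 0.13 of each other. The log2 change was -0.75 ± 0.16 (SE, n = 3 per group; 95% interval -1.13 to -0.38; adjusted p = 0.0824), and -0.71 within the first slide (adjusted p = 0.241, and 0.321 with slide as a block). Cyp2d3 was at 4.40, 4.27 and 4.93 in CCl4 livers, against 5.14, 5.07 and 5.44 in corn oil livers. The groups did not overlap, though CCl4 replicate 3 came within 0.14 of the lowest corn oil liver, and the change was -0.69 ± 0.20 (95% interval -1.18 to -0.19; adjusted p = 0.155).

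Cyp2d2, the debrisoquine hydroxylase of rat liver, was at 4.96, 5.07 and 5.74 in CCl4 livers, against 5.85, 5.61 and 5.62 in corn oil livers. CCl4 replicates 1 and 2 lay below all corn oil livers and replicate 3 among them. The change was -0.44 ± 0.22 (95% interval -0.97 to 0.10; adjusted p = 0.326), and -0.73 within the first slide.

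Cyp2d1 and Cyp2d5 are the closest relatives in the family by their array values. Cyp2d1 was at 8.48, 8.74 and 8.96 in CCl4 livers, against 9.12, 8.76 and 8.82 in corn oil livers. The brighter Cyp2d5 probe was at 8.51, 8.79 and 8.96 in CCl4 livers, against 9.10, 8.78 and 8.79 in corn oil livers. These probes of different genes differed by at most 0.05 on any array, and whether they bind the same transcripts was not tested, since probe sequences were not used here. The second Cyp2d5 probe was at 6.84, 7.13 and 7.55 in CCl4 livers, against 7.71, 6.83 and 7.32 in corn oil livers. All these groups overlapped: the change was -0.17 ± 0.17 for Cyp2d1 (95% interval -0.57 to 0.23; adjusted p = 0.583) and -0.14 ± 0.16 for the brighter Cyp2d5 probe (95% interval -0.52 to 0.25; adjusted p = 0.661). The second Cyp2d5 probe gave -0.11 ± 0.28 in the fit over 40478 probes (adjusted p = 0.867), where 0 of the 12 member probes passed, beside 0.341% of all probes. At an unadjusted p below 0.05, 3 member probes were lower, against 8.14% of all probes, and 5 had CCl4 livers below all corn oil livers, against 13.7%.

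Within arrays, Cyp2d4 minus Cyp2d1 was -4.10, -4.68 and -4.37 in CCl4 livers, against -4.02, -3.73 and -3.66 in corn oil livers. These values did not overlap, nor did the difference of Cyp2d4 to Cyp2d5, and both had the smallest exact permutation p possible (0.1, adjusted 0.175). Cyp2d4, like Cyp3a2 above, was taken as the member of its family with the largest change in these data, which favours such a difference. As the Cyp2d1 and brighter Cyp2d5 probes had nearly the same values, these are not separate results. The differences of Cyp2d4 to Cyp2d2 and Cyp2d3 overlapped (exact p = 0.3 and 0.7). The centred profiles of Cyp2d3 and Cyp2d4 over the 6 rats differed by a root mean square of 0.13, the smallest for any pair of different members after Cyp2d1 and Cyp2d5 (0.03).

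The CYP2D genes lie side by side within 56.6 kb on chromosome 7, between 115762662 and 115819281 of GRCr8, all on the minus strand, in the order Cyp2d4, Cyp2d5, Cyp2d1, Cyp2d3 and Cyp2d2. The promoters of 4 of them are printed because they contain both the least and the most different levels of the family. Each is the 250 bases before the RefSeq start, 5′ to 3′ on the minus strand, at chr7:115793431-115793680 (Cyp2d1), chr7:115784488-115784737 (Cyp2d5), chr7:115802143-115802392 (Cyp2d3) and chr7:115771822-115772071 (Cyp2d4). Capitals mark TATAAA on either strand, as no other of the motifs given capitals above matched.
Cyp2d1: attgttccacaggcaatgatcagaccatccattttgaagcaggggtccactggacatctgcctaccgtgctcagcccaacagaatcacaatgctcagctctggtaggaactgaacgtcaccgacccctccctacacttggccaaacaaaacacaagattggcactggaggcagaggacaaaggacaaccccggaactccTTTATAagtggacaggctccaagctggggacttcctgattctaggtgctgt
Cyp2d5: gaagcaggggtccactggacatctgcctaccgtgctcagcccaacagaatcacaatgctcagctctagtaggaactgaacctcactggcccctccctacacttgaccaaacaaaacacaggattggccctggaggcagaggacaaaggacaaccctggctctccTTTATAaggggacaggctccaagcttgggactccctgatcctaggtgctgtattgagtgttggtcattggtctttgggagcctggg
Cyp2d3: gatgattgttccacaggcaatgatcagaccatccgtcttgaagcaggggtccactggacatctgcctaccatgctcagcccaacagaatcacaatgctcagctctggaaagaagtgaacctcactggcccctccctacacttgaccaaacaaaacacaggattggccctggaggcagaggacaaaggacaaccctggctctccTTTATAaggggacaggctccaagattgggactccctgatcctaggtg
Cyp2d4: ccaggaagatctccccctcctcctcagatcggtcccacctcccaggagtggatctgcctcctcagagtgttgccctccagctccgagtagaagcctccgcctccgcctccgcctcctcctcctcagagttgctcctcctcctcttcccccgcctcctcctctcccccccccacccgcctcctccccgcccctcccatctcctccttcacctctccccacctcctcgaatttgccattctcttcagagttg
Aligned with free ends, the Cyp2d3 and Cyp2d5 sequences were identical in 205 of 211 aligned columns (97.2%), Cyp2d1 and Cyp2d5 in 201 of 215 (93.5%) and Cyp2d1 and Cyp2d3 in 226 of 246 (91.9%). Cyp2d4 stood apart, with 47.6% to 50.7% identity to these 3, and Cyp2d2 had 48.4% to 56.1% to the other members. Cyp2d1 and Cyp2d5 had similar promoters, and the Cyp2d1 and brighter Cyp2d5 probes had the closest array values. Whether these probes bind the same transcripts was not tested. Cyp2d3, whose promoter is nearest to that of Cyp2d5, had a log2 change of -0.69, against -0.14 for Cyp2d5, and the difference between these changes was not tested. TATAAA was present on either strand in Cyp2d1, Cyp2d3, Cyp2d5 and Cyp3a62, and in 14.2% of all promoters. CCAAT was present in Cyp2d1, Cyp2d3, Cyp2d5, Cyp3a9, Cyp3a62 and Nr1i2, and in 37.5% of all promoters.

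Nr1i2 had a small estimated difference. Its brighter probe was at 6.04, 5.40 and 6.02 in CCl4 livers, against 6.08, 6.09 and 6.07 in corn oil livers, and its dimmer probe was at 3.78, 3.33 and 3.85 in CCl4 livers, against 4.05, 3.98 and 3.97 in corn oil livers. The groups did not overlap on either probe, but CCl4 replicates 1 and 3 lay just under the tight corn oil levels on the brighter one, and replicate 2 supplied most of the distance. The change was -0.26 ± 0.19 on the brighter probe (SE; 95% interval -0.72 to 0.19; adjusted p = 0.466) and -0.34 ± 0.16 on the dimmer one in the fit over probes (adjusted p = 0.356). On the brighter probe the change was -0.04 within the first slide, and -0.05 with CCl4 replicate 2 left out. On the dimmer probe CCl4 replicates 1 and 3, at 3.78 and 3.85, lay further below the corn oil levels of 4.05, 3.98 and 3.97.

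Each CCl4 rat had its own pattern across the members. CCl4 replicate 1 was below the lowest corn oil liver for 9 of the 10 members, with a median distance from the corn oil mean of -0.69, and CCl4 replicate 2 for 8, with a median of -0.62. CCl4 replicate 3 was below the lowest corn oil liver for 4 members (Cyp3a2, Cyp2d3, Cyp2d4 and Nr1i2), with a median of -0.01, and was the highest CCl4 rat for 8 of the 10. CCl4 replicates 2 and 3, which differed in this way, shared a slide. These counts were not taken over all genes, so a shift of a whole rat cannot be told from a trait of the members. Cyp2d1 and the brighter Cyp2d5 probe, at most 0.05 apart on any array, both count among the 10. On the first slide, which leaves CCl4 replicate 1 alone, Cyp3a62 was at -0.67, Cyp2d1 at -0.42 and Cyp2d5 at -0.38. Cyp3a2 was the member with the largest distance in each of the 3 CCl4 rats, from -2.07 in replicate 1 to -0.99 in replicate 3.

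**Figure D3:**
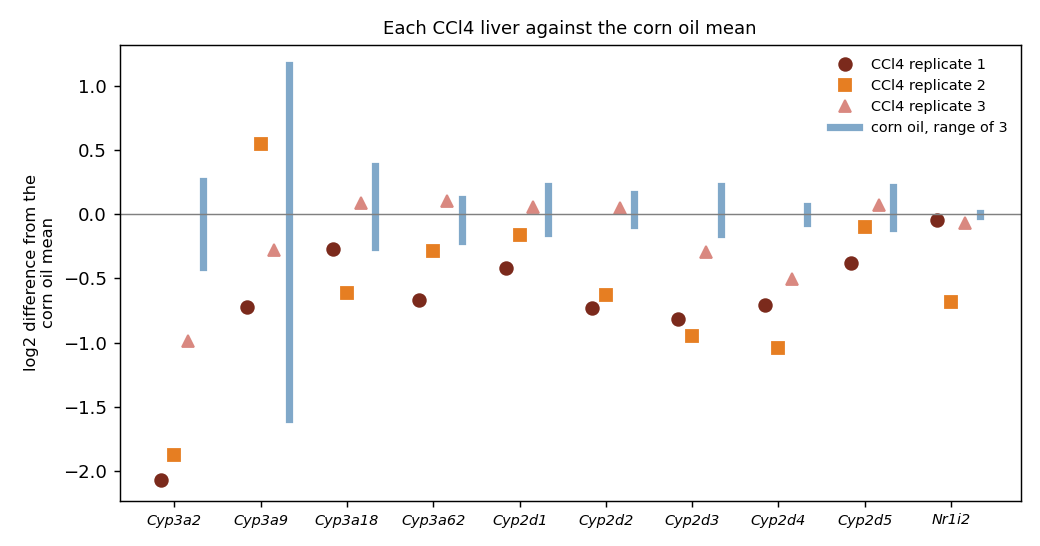
Distance of each CCl4 liver from the corn oil mean for every member (log2; circle, square and triangle are CCl4 replicates 1, 2 and 3), with the range of the 3 corn oil livers as a blue bar. All 3 CCl4 rats lie below the bar for Cyp3a2, Cyp2d3, Cyp2d4 and Nr1i2, and replicate 3 is nearest to 0 for most members.

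Partners of PXR and other genes of the pathway were read from lists of known genes. Of 15 partners and co-regulators measured, 0 passed over all genes in limma, 3 had an unadjusted p below 0.05, beside 19.7% of all genes, and the median change was -0.25. Nr1i3, which encodes the constitutive androstane receptor (CAR), the closest relative of PXR and an inducer of CYP2B genes, was at 1.98, 2.32 and 2.62 in CCl4 livers, against 3.36, 3.66 and 3.20 in corn oil livers. Every CCl4 liver was below every corn oil liver, with a change of -1.10 ± 0.20 (SE; adjusted p = 0.0725) on the brightest probe and -1.20 to -1.08 over its 4 probes. It passed with normexp, at -1.14 (adjusted p = 0.0375), and when CCl4 replicate 3 was left out, at -1.26 (adjusted p = 0.0491). Nr1i3 did not pass with any other rat left out (limma adjusted p = 0.118 to 0.223). Onecut1, a hepatocyte transcription factor (-1.27 ± 0.89), the vitamin D receptor gene Vdr (1.04 ± 0.55) and the forkhead factor gene Foxa3 (-0.61 ± 0.24) had the other largest differences, each with overlapping groups. Vdr was at 0.30 with normexp, 0.38 with CCl4 replicate 1 left out and 2.37 on the first slide alone. Onecut1 lay between -2.14 (corn oil replicate 1 left out) and -0.80 (corn oil replicate 3 left out), and Foxa3 was at -0.97 on the first slide alone.

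Of known PXR targets outside the 2 families, 17 were measured, 12 with a negative and 5 with a positive change and a median of -0.22. Over all genes 0 passed, and 7 had an unadjusted p below 0.05, beside 19.7% of all genes. Abcb1b, a drug exporter of the canalicular membrane, was at 5.98, 6.24 and 4.77 in CCl4 livers, against 3.24, 3.35 and 3.37 in corn oil livers. Its change was 2.34 ± 0.37 on the brightest probe (adjusted p = 0.0594), and 2.34 to 6.15 over its 3 probes. Abcc3, an exporter of the sinusoidal membrane, was at -0.30, -0.19 and -1.69 in CCl4 livers, against -3.12, -2.45 and -3.20 in corn oil livers (2.20 ± 0.43; adjusted p = 0.0759). For both exporters all CCl4 livers lay above all corn oil livers, with CCl4 replicate 3 the nearest. Without that rat Abcb1b was at 2.79 (adjusted p = 0.00561) and Abcc3 at 2.67 (adjusted p = 0.0213). With any other rat left out neither passed (limma adjusted p = 0.0924 to 0.193 for Abcb1b and 0.0975 to 0.235 for Abcc3). Abcb1a, a further exporter, was at 0.92 ± 0.31 (adjusted p = 0.194), at 0.45 with normexp (adjusted p = 0.207), at 0.74 when CCl4 replicate 1 was left out (adjusted p = 0.348) and at 1.26 when CCl4 replicate 3 was left out (adjusted p = 0.0472). Sult2a1, a bile acid and steroid sulfotransferase, was at -0.76 ± 0.20 (adjusted p = 0.118), with groups that did not overlap, and at -0.43 on the first slide alone.

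Genes for electron transfer and haem supply of P450 enzymes had a median change of -0.04, near that of all genes. Of 16 measured, 0 passed and 1 had an unadjusted p below 0.05, beside 19.7% of all genes. Fech (-0.35 ± 0.16) and Alad (-0.34 ± 0.12), both enzymes of haem synthesis, had the largest differences. Por, the P450 reductase gene, was at 0.23 ± 0.22 (adjusted p = 0.574). Alas1, the rate-limiting haem synthesis enzyme of liver, was at -0.22 ± 0.39 (adjusted p = 0.788), but 0.18 on the first slide alone and 0.12 when CCl4 replicate 3 was left out.

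Of 11 P450 genes known to differ between male and female rats, which include the 4 CYP3A members, 10 had a negative change and 1, Cyp2c12, a positive one, with a median of -0.28. Of these 0 passed, and 4 had an unadjusted p below 0.05, beside 19.7% of all genes. Cyp2c11, the main male-specific P450, was at 6.94, 6.40 and 8.47 in CCl4 livers, against 8.54, 8.38 and 8.69 in corn oil livers. As for Cyp3a2, CCl4 replicates 1 and 2 were low and replicate 3 was the nearest to corn oil, where for Cyp2c11 it lay among the corn oil rats. The change of Cyp2c11 was -1.27 ± 0.51 (adjusted p = 0.244), -0.83 with CCl4 replicate 2 left out (adjusted p = 0.496) and -1.87 with CCl4 replicate 3 left out (adjusted p = 0.0279). Cyp2c12, the female-specific P450, was at 5.77, 5.47 and 5.15 in CCl4 livers, against 0.87, 4.29 and 3.53 in corn oil livers. All CCl4 rats were above all corn oil rats, but the corn oil rats spread widely, and the change was 2.57 ± 0.84 (adjusted p = 0.184), or 1.56 without corn oil replicate 1. Cyp4a2, a male-predominant fatty acid hydroxylase, was at -0.76 ± 0.34 (adjusted p = 0.273), and at -0.22 within the first slide. Cyp2a1 was at -0.62 ± 0.17 (limma adjusted p = 0.136), with groups that did not overlap. The remaining genes of the list outside CYP3A were Cyp2c7 at -0.37, Cyp2c13 at -0.24 and Cyp2a2 at -0.19. Whether the changes follow the sex in which each gene is higher was not tested.

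**Figure D4:**
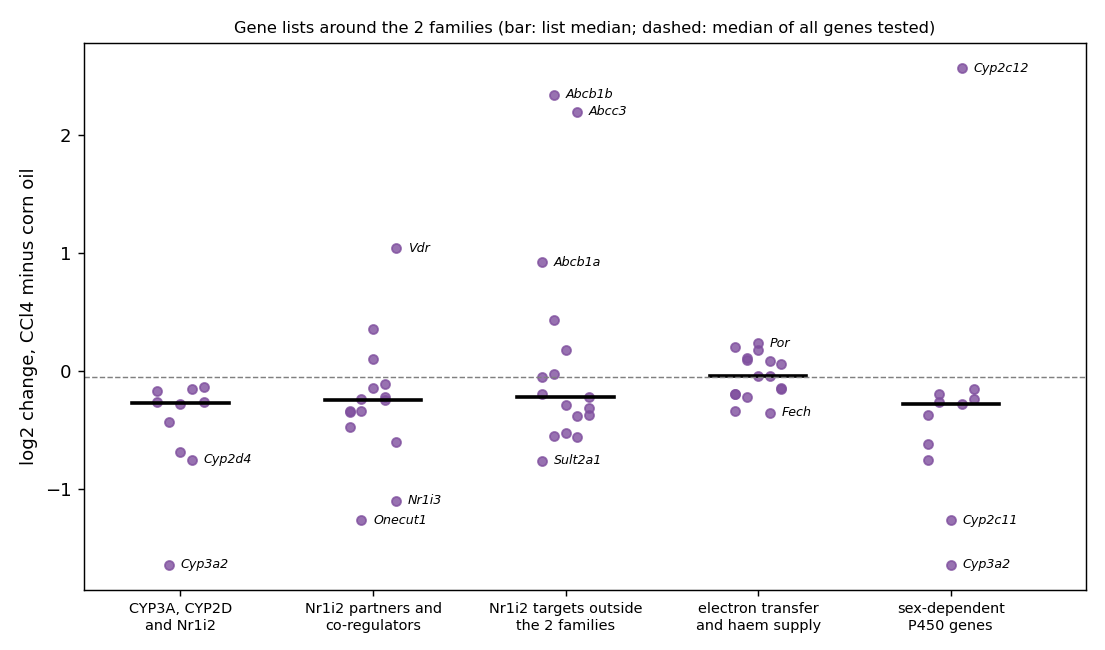
Log2 change, CCl4 minus corn oil, of the members and of the genes measured in the lists on PXR partners, PXR targets, electron transfer and haem supply, and sex-dependent P450 genes, with 1 point per gene, the list median as a black bar and the median of all genes tested as a dashed line. Cyp3a2 lies at the bottom of its family at -1.64, and Abcb1b, Abcc3 and Cyp2c12 lie above 2.

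Genes whose centred levels over the 6 rats were nearest to those of 3 members were found by root mean square difference. For Cyp3a2 they were Cfap161 (0.19), Art2b (0.25) and Ugt2b1, a glucuronosyltransferase gene (0.28). For Cyp2d4 they were Gpld1 (0.03), Fgf1 (0.05) and Tfdp2 (0.06), and for Nr1i2 they were Mbl1 (0.05), Khk (0.05) and Aadac (0.07). None of these 9 genes passed over all genes, with adjusted p-values from 0.0725 to 0.474.

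Markers of other cell types were read for the same livers. The summed level of 7 macrophage markers was 69.5 to 89.6 in CCl4 livers, against 81.4 to 101 in corn oil livers, and that of 7 stellate cell markers 34.8 to 50.7 against 28.6 to 34.4. The 5 bile duct markers tested summed to 1.78 to 4.49 in CCl4 livers, against 1.41 to 1.54 in corn oil livers, and the 3 markers of dividing cells to 3.28 to 4.45 against 1.00 to 1.76. The 3 endothelial markers summed to 32.2 to 38.5 in CCl4 livers, against 39.9 to 46.9 in corn oil livers, the 5 lymphocyte markers to 2.67 to 3.05 against 2.49 to 3.30, and the 2 intestinal markers to 1.20 to 2.40 against 1.29 to 2.00. Of these summed levels, those of stellate, bile duct, dividing and endothelial cells did not overlap between the groups, and their part in the values of the P450 genes was not tested. The sums weigh the brightest genes most, and single markers did not all follow. Acta2 was at -0.24 and Lrat at -0.02, though 5 of 7 stellate markers were positive. Krt19 was at -0.17 and Krt7 at 0.01, though 4 of 5 bile duct markers were positive. Spp1 was highest in CCl4 replicate 3, with levels of -1.02, -2.19 and 1.57 in CCl4 livers, against -1.99, -2.30 and -1.75 in corn oil livers. Among endothelial markers Kdr was at -0.38, Pecam1 at -0.01 and Lyve1 at 0.10.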

How the data were processed

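Per the labels, total RNA (0.2 µg per rat) was labelled with Cy3 and hybridised to 1-colour Agilent arrays. The deposited scanner files give an intensity per spot, already background-subtracted but not scaled between arrays. Agilent Feature Extraction made them, in version 10.7 by the submitters' processing notes and 10.7.1.1 by the file headers. Other deposited columns mark saturated and outlying spots and those well above background. The authors' value table is each array's processed signal as a ratio to a divisor of 583 to 677 units, near that array's 75th percentile (583 to 676 units), with column medians of 0.103 to 0.110. The labels do not describe that step.

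Control spots (1439) and 26 probes with an outlier flag were left out. Of 61537 probes, 28206 matched 1 symbol of the GRCr8 gene table. Genes needed a probe well above background on at least 3 arrays, the brightest probe stood for a gene, and the groups were compared by lmFit and eBayes of limma (3.58.1, under R 4.3.3), in two-sided tests, and p-values were adjusted across every gene tested (Benjamini-Hochberg). A second fit took all probes. The fit was tested on simulated data. The members, lists, tests and naming rule (all members, up to 4 genes per list by size, 3 nearest genes for 3 members) were chosen with earlier results of these data known. The normexp alternative used median spot signals. Same-numbered rats of the 2 groups deviated together with correlations of -0.05, 0.16 and 0.02, so the numbers were not taken as pairs. Promoters came from RefSeq (GRCr8). Python 3.11.15 was also used. The arrays number 3 per group, which limits the precision.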

Additional observations from a re-analysis of the deposited data

How the results depend on the processing

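The 18 alternatives changed scaling, background correction, filter, probe choice, variance model, slide, pairing and the rats included. Of all genes 76 passed, and 217 with normexp, 139 with the filter on all 6 arrays, 156 with a variance trend, 4 with slide as a fixed block, 0 within the first slide alone (1598 at an unadjusted p below 0.05), 10 with the replicate block and 2 to 241 when each rat was left out. The member genes passing numbered 0, and 1 (Cyp3a2) with normexp. Over the rats left out, 0 to 1 passed, in the fits of genes and of probes (Cyp3a2 without CCl4 replicate 3). Their median was -0.27, and -0.69 with slide as a fixed block or within the first slide, both of which rest on 1 CCl4 rat. With each rat left out it ranged over -0.46 (without CCl4 replicate 3) to -0.25 (without corn oil replicate 3). PXR partners passing numbered 1 lower with normexp and 0 to 1 over the rats left out (Nr1i3). PXR targets passing numbered 1 higher with median scaling, normexp, the filter on all 6 arrays, probe means or a variance trend (Abcb1b), 1 lower with normexp, and 0 to 3 higher over the rats left out. Sex-dependent P450 genes passing numbered 1 lower with normexp and 0 to 2 over the rats left out (Cyp3a2 and Cyp2c11 without CCl4 replicate 3). The cause of these changes was not tested. Positive values appeared for Cyp2d5 under quantile normalization (0.051) and for Alas1 with slide as a fixed block or on the first slide alone (0.18). With each rat left out, Cyp3a9 ranged over -0.95 to 0.43 (positive also at 0.07 and 0.13), the second Cyp2d5 probe over -0.34 to 0.10 (positive also at 0.06), and Alas1 over -0.54 to 0.12. The other 7 CYP members and Nr1i2 kept a negative change under all 18 alternatives, though that of Cyp2d1 was only -0.001 under quantile normalization. The replicate block changed no call of a member. Values near background do not limit the members, which were all well above it.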

Other observations

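The corn oil rats also differed among themselves across the members. Corn oil replicate 2 was the lowest corn oil rat for 7 of the 10 members, while corn oil replicates 1 and 3 were the highest for 4 and 5. The same counts were not taken over all genes. The spread between corn oil rats was 2.76 on the log2 scale for Cyp3a9 and 0.67 for Cyp3a2, beside 0.02 for the brighter Nr1i2 probe, and 99.6% of the genes tested had a larger corn oil SD than Nr1i2. Among CCl4 rats the spread was 1.26 for Cyp3a9, 1.08 for Cyp3a2 and 0.64 for Nr1i2.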
